A study of Mus musculus with 35 samples.

Results

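The wide H3K27me3 domains of wild-type mouse neural progenitor cells are the H3K27me3 peaks of the wild-type (WT) line 541 that spanned 4000 bp or more and overlapped an H3K27me3 peak of the WT line 532. They numbered 1914 of the 33188 H3K27me3 peaks of WT 541, or 5.77% of its peaks, and held 38.1% of the length under its peaks. All 1914 peaks of that width overlapped WT 532, so the overlap removed none. The width and presence of H3K27me3 in the WT lines therefore chose the domains, and every H3K27me3 value below is a description with no test. RNA and H3K27ac were not used in the choice.

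The study set embryonic neural progenitor cells (NPC) homozygous for a Mettl14 deletion (KO) against WT cells. Heterozygous cells (Het) were in RNA batches 1 and 2, and batch 2 was not analysed here. Mettl14 encodes a subunit of the complex that writes N6-methyladenosine (m6A) on messenger RNA. Chromatin immunoprecipitation sequencing (ChIP-seq) of H3K27me3 and H3K27ac came from the lines KO 530, KO 534, WT 532 and WT 541, 1 culture each, each with its input. RNA-seq batch 3 came from these lines, 2 KO and 2 WT libraries, and batch 1 from other lines, 3 KO, 3 Het and 3 WT libraries. The labels describe a floxed Mettl14 allele. EIIa-Cre, which acts in the early embryo, gave the germline deletion, and heterozygous animals were intercrossed for the KO. A second cross used nestin-Cre to delete Mettl14 in the brain, and the labels do not say which lines came from which cross. Each line was counted as 1 replicate. The labels do not name the animal behind each line.

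H3K27me3 is the trimethyl mark that Polycomb repressive complex 2 (PRC2) places on lysine 27 of histone H3, and complexes of the PRC1 type bind it. It lies over silent genes, and its broadest stretches in stem and progenitor cells cover genes for transcription factors and signals that direct other lineages. H3K27ac, the acetyl mark of active promoters and enhancers, sits on the same lysine, so a single histone tail cannot carry both.

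Promoters of 5 genes that start in the domains show the sequence under the mark. They are examples of genes whose RNA differed between KO and WT in both batches, and were picked after the values were seen. The windows run from 250 bases before to 50 bases after the RefSeq start, on GRCm38.p6, the build of the peak files (mm10). They read 5′ to 3′ on the gene's strand, with each CG in capitals. Gad1 makes the enzyme that turns glutamate into the inhibitory transmitter GABA (chr2:70561879-70562178, plus strand), and Otx2 is a homeodomain factor of the forebrain and midbrain (chr14:48667595-48667894, minus strand). Six3 is a homeodomain factor of the forebrain and eye (chr17:85620584-85620883, plus strand), and Trim71 is an RNA-binding ubiquitin ligase of early development (chr9:114564320-114564619, minus strand). Cdkn2a encodes the cell cycle inhibitors p16Ink4a and Arf, a classical Polycomb target. The window shown is at the RefSeq start that lies in a domain (chr4:89282143-89282442, minus strand).
Gad1: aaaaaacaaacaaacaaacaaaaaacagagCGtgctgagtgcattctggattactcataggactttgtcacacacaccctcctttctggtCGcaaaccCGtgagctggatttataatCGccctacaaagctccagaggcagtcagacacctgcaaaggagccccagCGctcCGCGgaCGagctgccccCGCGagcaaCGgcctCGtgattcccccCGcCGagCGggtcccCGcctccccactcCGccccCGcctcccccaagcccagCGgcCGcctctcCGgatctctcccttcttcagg
Otx2: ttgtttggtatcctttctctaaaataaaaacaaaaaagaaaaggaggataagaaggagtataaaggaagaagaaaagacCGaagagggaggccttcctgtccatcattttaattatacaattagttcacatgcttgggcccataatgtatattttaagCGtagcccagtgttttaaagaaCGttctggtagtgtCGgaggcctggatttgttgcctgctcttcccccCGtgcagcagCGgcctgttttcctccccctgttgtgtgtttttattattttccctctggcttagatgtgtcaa
Six3: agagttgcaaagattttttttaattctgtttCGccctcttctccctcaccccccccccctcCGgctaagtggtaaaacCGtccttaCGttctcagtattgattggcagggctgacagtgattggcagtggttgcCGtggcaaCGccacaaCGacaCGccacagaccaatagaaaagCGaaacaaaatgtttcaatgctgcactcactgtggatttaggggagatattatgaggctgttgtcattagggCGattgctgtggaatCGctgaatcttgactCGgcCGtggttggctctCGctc
Trim71: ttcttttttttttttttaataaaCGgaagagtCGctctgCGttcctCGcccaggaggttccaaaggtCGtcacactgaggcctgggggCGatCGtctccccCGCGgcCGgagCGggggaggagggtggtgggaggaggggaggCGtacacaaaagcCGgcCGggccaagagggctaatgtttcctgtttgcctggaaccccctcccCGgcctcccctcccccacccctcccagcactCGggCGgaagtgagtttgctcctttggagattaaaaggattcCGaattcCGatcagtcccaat
Cdkn2a: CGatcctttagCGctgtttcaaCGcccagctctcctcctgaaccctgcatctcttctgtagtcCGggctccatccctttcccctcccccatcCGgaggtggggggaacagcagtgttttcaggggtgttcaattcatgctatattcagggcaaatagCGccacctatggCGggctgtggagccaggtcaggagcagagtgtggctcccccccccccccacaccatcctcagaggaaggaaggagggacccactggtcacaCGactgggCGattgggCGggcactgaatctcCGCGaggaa

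All 5 windows lay wholly under H3K27me3 peaks in all 4 lines. They held 21 CG in Gad1, 6 in Otx2, 14 in Six3, 19 in Trim71 and 12 in Cdkn2a. RefSeq gives 4 starts for Otx2, all in a domain, and the windows at the others held 8, 16 and 11 CG. H3K27ac peaks covered 100% of the Gad1 window in KO 530 and in KO 534, against 0% in both WT lines. WT 532 had an H3K27ac peak just past this window, from 91 to 549 bp after the Gad1 start. The other windows carried no H3K27ac in either KO line. WT 532 had 100% of the Six3, Trim71 and Cdkn2a windows and 52.3% of the Otx2 window under H3K27ac. WT 541 had 100% of the Trim71 window and none of the other windows.

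MicroRNA genes inside the domains shared seeds across the Hox clusters. Of 1005 mapped RefSeq hairpins, 26 lay wholly inside 21 domains. The seed, bases 2 to 8 and in capitals below, was shared among 2 groups of them, and all of these lay in Hox domains with 99.6% or more of their length under H3K27me3 in each KO line and in WT 532. The mature sequences are from RefSeq, and the loci are chr11:96317186-96317208 (plus strand) for miR-10a, chr2:74726074-74726096 (plus strand) for miR-10b, chr11:96265187-96265208 (plus strand) for a copy of miR-196a and chr6:52230129-52230150 (minus strand) for miR-196b.
mmu-miR-10a-5p: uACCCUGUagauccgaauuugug
mmu-miR-10b-5p: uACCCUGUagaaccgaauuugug
mmu-miR-196a-5p: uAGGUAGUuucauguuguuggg
mmu-miR-196b-5p: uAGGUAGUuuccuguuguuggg

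A second locus of miR-196a lies at chr15:102973365-102973386. The miR-10 pair sits beside Hoxb and Hoxd genes, and the miR-196 group beside Hoxb, Hoxc and Hoxa genes. Hox genes encode the homeodomain factors that give body segments their identity. The RNA libraries were made from polyadenylated RNA, so levels of the mature microRNAs were not measured.

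The domains covered 16.1 Mb, with a median width of 6195 bp, quartiles of 4797 and 8948 bp and a widest of 113844 bp. Widths of 10 kb or more were reached by 399 domains, 20 kb by 105 and 50 kb by 5. The authors' fold enrichment over input ranged within them between 1.59 and 22.7, with a median of 6.50. The widest domain was the Hoxb cluster, with Hoxb2 to Hoxb9, Mir10a and Mir196a-1 (chr11:96248278-96362121). Hoxc (chr15:102959522-103025274) had 65753 bp, Hoxd (chr2:74686463-74742234) 55772 bp, and the stretch with Hotair and Hoxc11 to Hoxc13 (chr15:102904862-102958618) 53757 bp. Another wide domain, of 87256 bp (chr8:123537339-123624594), held copies of the 5S ribosomal RNA gene and no gene start of the assembly. Its reads come from near-identical copies, so its extent is uncertain. Developmental regulators filled the rest of the 12 widest. They were Pax2, a factor of kidney and midbrain, Tlx1, of spleen, Hoxa3 to Hoxa7, Vax2, of the ventral eye, Tbx3, of limb and heart, Uncx, of the vertebrae, and Hmx1, of the ear and eye.

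Genes of 9 families of development made up 242 of the 1061 gene symbols that start in a domain, or 22.8%. The domain symbols were 4.44% of the 23906 symbols of the assembly, where these families have 424 members. All 39 Hox genes of the assembly started in a domain. So did 105 of 146 other homeobox genes, 12 of 17 T-box genes, 5 of 6 GATA genes, 17 of 35 basic helix-loop-helix (bHLH) genes of the list and 19 of 44 forkhead genes. The shares were lower for signalling genes (32 of 94), developmental zinc finger factors (9 of 23) and Sox genes (4 of 20). A total of 915 domains held a gene start and 999 held none.

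H3K27me3 in the KO lines covered nearly the same stretches. Peaks of KO 530 covered 87.7% of the total domain length and peaks of KO 534 87.8%, against 90.2% for WT 532 and 100% for WT 541 by the rule. The median domain was covered to 93.5% in KO 530, 92.6% in KO 534 and 92.8% in WT 532. Both KO lines had lower cover than WT 532 in 651 domains and higher cover in 650, and the remaining 613 were tied or had WT 532 between them. Domains covered to at least 90% numbered 1061 in KO 530, 1055 in KO 534 and 1092 in WT 532. Domains covered to under 50% were more frequent in the KO lines, at 164 in KO 530 and 161 in KO 534, against 76 in WT 532. The whole peak lists differed in size between lines of 1 genotype. They held 43186 peaks over 48.9 Mb in KO 530, 59561 over 65.5 Mb in KO 534, 58863 over 58.8 Mb in WT 532 and 33188 over 42.2 Mb in WT 541.

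Cover in the lines depended on the line in which the domains were chosen. Domains chosen by the same rule in KO 530 numbered 1993, with 89.9% of their length covered in KO 534 and a mean of 84.9% in the 2 WT lines. Those chosen in KO 534 numbered 1963, with 90.5% covered in KO 530 and a mean of 86.1% in the WT lines. Choice in WT 532 gave 1856 domains, with a mean of 87.4% in the KO lines and 90.4% in WT 541. The rule asked each time for overlap with the other line of the choosing genotype and set no such condition on the other genotype. This overlap kept all 1914 peaks of 4000 bp or wider in WT 541 and 1993 of 1994 in KO 530. It kept 1856 of 2004 in WT 532 and 1963 of 2580 in KO 534. The part of the choice in which lines had the higher cover was not tested.

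Cover was higher in wider domains in every line not used for the width. Domains of 4 to 6 kb, 900 in number, were covered to 79.7% in KO 530, 80.4% in KO 534 and 83.4% in WT 532. The 615 domains of 6 to 10 kb had 86.2%, 86.1% and 89.1% in the same lines, and the 294 of 10 to 20 kb had 91.4%, 91.2% and 94.2%. The 105 domains of 20 kb or more had 96.5% in each of KO 530, KO 534 and WT 532. At the narrow end of the list, 4857 peaks of under 500 bp that overlapped WT 532 had 42.6% in KO 530, 41.7% in KO 534 and 76.4% in WT 532. These were kept only where WT 532 had a peak, which was not asked of the KO lines, so their values do not compare the genotypes. Close to the threshold, the 72 domains that exceeded 4000 bp by under 100 bp had 73.2% in KO 530, 74.7% in KO 534 and 80.2% in WT 532. The 71 peaks that missed it by at most 100 bp had 76.4%, 74.8% and 78.3% in these lines.

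**Figure D1:**
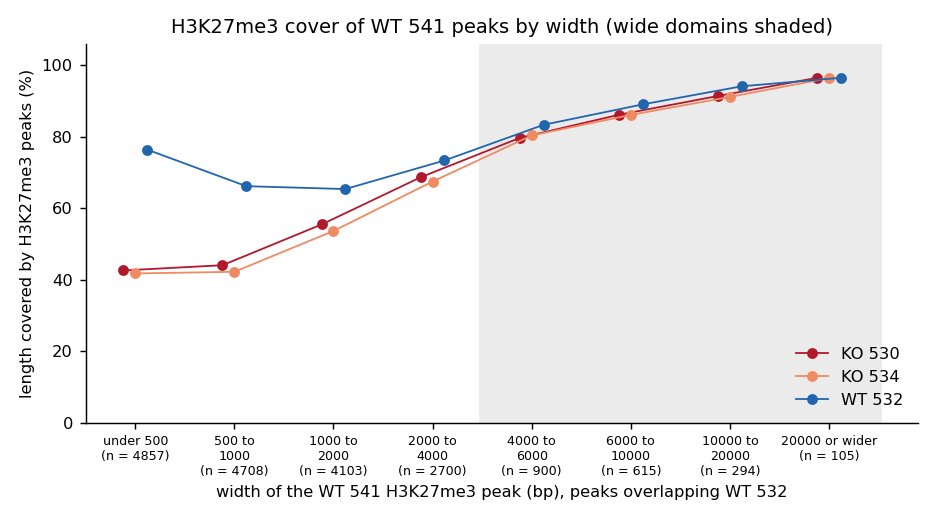
Share of length under H3K27me3 peaks (y axis, percent) by width of the WT 541 peak (x axis, bp) for KO 530, KO 534 and WT 532. The shaded classes are the wide domains, where the lines lie between 79.7% and 96.5%. Every peak plotted was required to overlap WT 532, and no such overlap was asked of the KO lines, so WT 532 is above 0% in each peak.

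The edges of the domains lay at similar places in the KO lines and in WT 532. At 2000 bp inside an edge, 88.6% of edges were under a peak in KO 530, 88.6% in KO 534 and 91.1% in WT 532. At the edge itself the shares were 54.8%, 53.3% and 53.6% in the same order, and 500 bp outside they were 27.8%, 26.4% and 24.8%. At 20000 bp outside they were 18.0% in KO 530, 17.6% in KO 534, 19.4% in WT 532 and 18.3% in WT 541. At each of these distances KO 530, KO 534 and WT 532 lay within a few percentage points of each other.

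**Figure D2:**
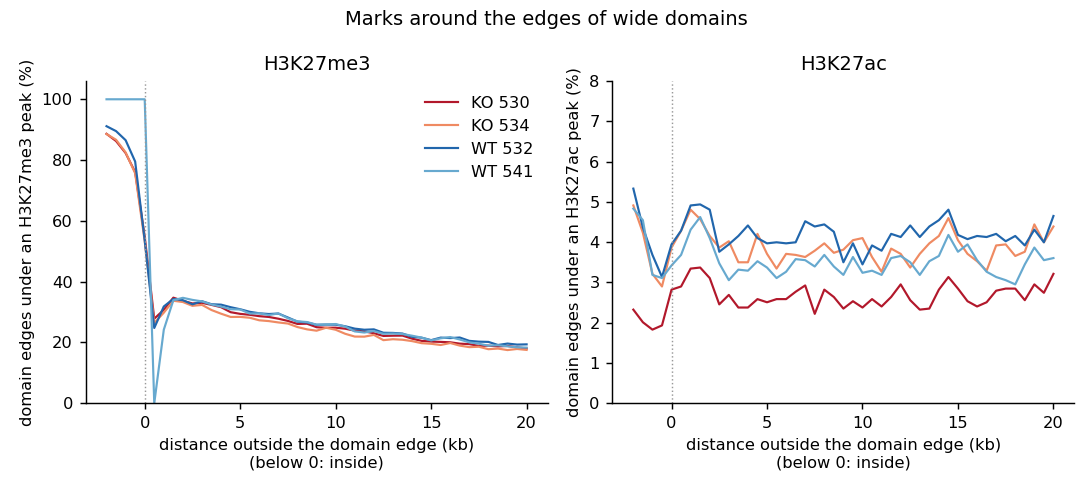
Share of domain edges under a peak (y axis, percent) by distance from the edge (x axis, kb, below 0 inside the domain), for H3K27me3 and for H3K27ac, 1 curve per line. The H3K27me3 curves of KO 530, KO 534 and WT 532 pass the edge at 54.8%, 53.3% and 53.6%, while WT 541 is at 100% inside by the rule.

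Only a few domains lacked the mark in the KO lines. Cover of under 50% in both KO lines was found in 101 domains, of under 10% in both in 7, and of 0 in both in 2. The pair at 0 lay in Sh3pxd2a (chr19:47440359-47446330), which encodes a scaffold of invasive cell protrusions, and in the body of Cacna1g (chr11:94414818-94419650), which encodes a T-type calcium channel. WT 532 covered them to 62.5% and 62.4%, and no line had H3K27ac there. A domain in Angptl4, a secreted inhibitor of lipoprotein lipase (chr17:33773454-33779098), had 0% H3K27me3 in KO 530 and 7.07% in KO 534, against 41.1% in WT 532. H3K27ac covered 13.8% of it in KO 530 and 11.9% in KO 534, against 0% in both WT lines. A domain in Hmcn2, an extracellular matrix gene (chr2:31424686-31428998), had 1.30% H3K27me3 in KO 530 and 15.6% in KO 534, against 55.4% in WT 532, and H3K27ac of 13.98% and 26.1% in these KO lines against 0% in both WT lines. Shf, an adaptor protein gene (chr2:122352936-122357494), had 0% in KO 530 and 8.29% in KO 534, but also only 5.55% in WT 532, so there WT 541 stood alone. The 10 domains least covered in the KO lines spanned 4007 to 9429 bp and had an authors' fold of 3.33 to 4.50, against a median of 6.50 over all domains.

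H3K27ac was sparse in the domains and lowest in a KO line. Its peaks covered 1.61% of the domain length in KO 530 and 3.08% in KO 534, against 3.50% in WT 532 and 3.30% in WT 541. The mean was 2.35% ± 1.04 in KO and 3.40% ± 0.137 in WT (SD, n = 2 each), a difference of −1.05 percentage points. Both KO values were below both WT values, with an exact two-sided permutation p of 0.333, the smallest that 2 lines against 2 can give. H3K27ac lists as a whole covered 50.5 Mb in KO 530, 64.8 Mb in KO 534, 82.7 Mb in WT 532 and 68.7 Mb in WT 541, and the part of this in the difference was not tested. The depth of the ChIP libraries is unknown.

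Most domains had no H3K27ac at all. It was absent in all 4 lines from 985 domains and present in all 4 in 259. Domains with at least 1 bp of H3K27ac numbered 408 in KO 530 and 610 in KO 534, against 651 in WT 532 and 580 in WT 541. It was found in both KO lines and no WT line in 27 domains, including those with Wnt6, Gata3, Jag2 and Slc6a4. It was found in both WT lines and no KO line in 72, including those with Otx2, Six3, Pax6, Trim71, Dlx1 and Dlx2, Fgf8, Hhex and Twist1. These names were chosen after their values were seen.

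**Figure D3:**
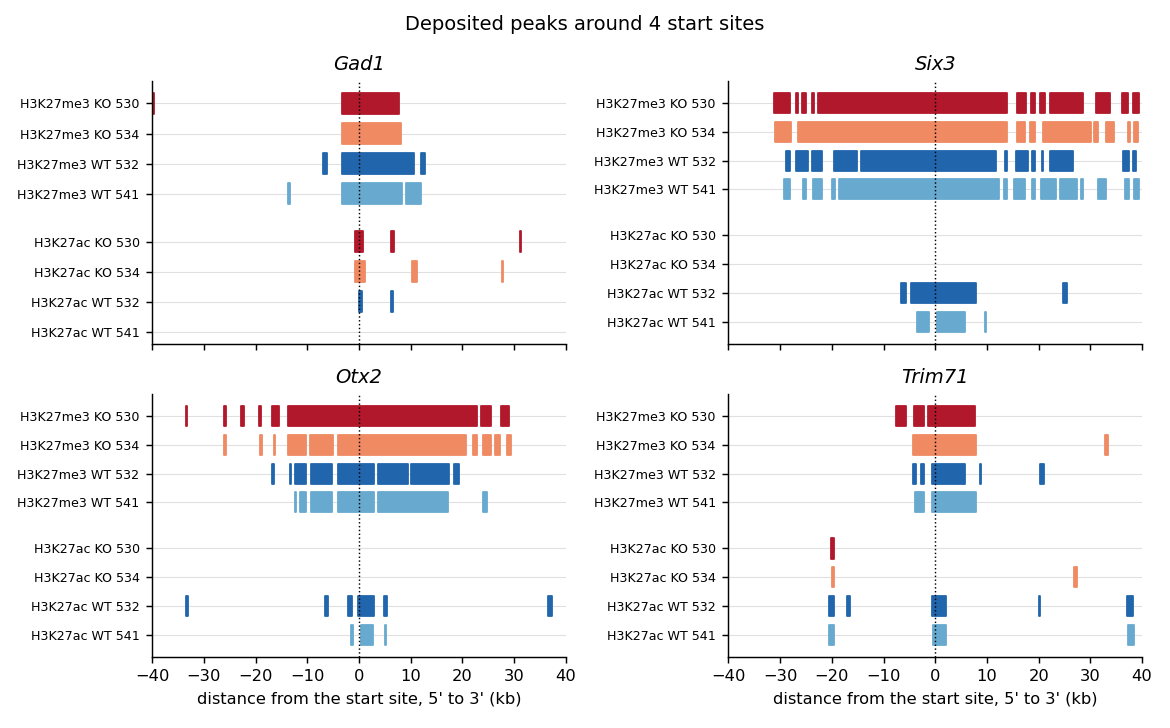
Deposited peaks of each ChIP line (rows) around the start sites of Gad1, Six3, Otx2 and Trim71 (x axis, distance from the start in kb, 5′ to 3′). H3K27me3 blocks span the 4 starts in all lines, while H3K27ac blocks at the start are present in both KO lines at Gad1 and in no KO line at Six3, Otx2 and Trim71. At Gad1, WT 532 has an H3K27ac block from 91 to 549 bp after the start.

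Genes starting in the domains were mostly silent in all genotypes. A gene was placed in a domain when the start of any of its transcripts in the batch 3 assembly lay inside, which gave 1057 of 23421 genes. Of these, 320 had no fragment in any batch 3 library. Levels of 1 FPKM (fragments per kilobase of transcript, scaled to library size) or more were reached by 116 and 115 domain genes in the KO libraries of batch 3, against 133 and 122 in the WT libraries. These are 11.0% and 10.9% in KO, against 12.6% and 11.5% in WT. Among 21087 genes that start in no WT 541 H3K27me3 peak overlapping WT 532, the share was 52.2% and 51.8% in KO, against 52.4% and 52.4% in WT. In bulk RNA, fewer cells of a type and less RNA per cell cannot be told apart.

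In batch 3, 292 domain genes passed the filter on low counts, and more of them fell than rose in KO. At an adjusted p below 0.05 (edgeR quasi-likelihood test, Benjamini-Hochberg over all 12836 genes tested), 46 rose and 60 fell, or 15.8% and 20.5% of those tested. Over all genes, 31.7% were called, 17.3% higher and 14.4% lower. The larger share of falls among domain genes depended on the setting. With no low-count filter, 8.41% of 737 domain genes fell, against 12.03% of all 16799 genes. Without KO replicate 1 or KO replicate 2, the share among domain genes was also the smaller. It stayed the larger with DESeq2, with limma on either scale, with the other gene assignments, and without WT replicate 1 or WT replicate 2. KO and WT libraries did not overlap in any of the 46 and 60 genes, as in every gene called in this batch. The median log2 fold change was −0.14 over the domain genes and 0.00 over all genes tested. The filter lets a gene pass through the group where it is high, so the 292 are not all members.

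In batch 1 the counts of rises and falls depended on the test. Of 341 domain genes tested, 116 rose and 92 fell in KO, or 34.0% and 26.98%, while over all 13677 genes 69.3% were called, 34.3% higher and 35.0% lower. With limma on log2(FPKM + 0.1) 100 rose and 104 fell, or 29.3% and 30.5%. Its shares over all genes were 26.8% higher and 37.7% lower. On log2(FPKM + 1) 97 rose and 98 fell, or 28.4% and 28.7%, against 27.1% higher and 37.5% lower over all genes. With edgeR and with limma alike, a smaller share fell among domain genes than over all genes. The median log2 fold change of the domain genes was 0.20 with edgeR. Het cells differed from WT in 1 domain gene, Gad1, where 0.0146% of all genes were called higher and 0.0% lower. Called alike in both batches were 40 domain genes that rose and 45 that fell, of 272 tested in both. Over all 12357 genes tested in both, 14.8% were called higher in both batches and 12.6% lower in both. The 2 batches used other lines and were counted on separate assemblies.

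The largest rise among domain genes called alike in both batches was in Gad1, with Cbln2 and Cacna1g next by fold change. Gad1 (domain chr2:70558839-70570417) had 86.2 and 84.8 CPM (counts scaled to a common library size) in KO, against 3.49 and 3.65 CPM in WT, in batch 3. In batch 1 it had 69.2, 92.1 and 83.9 CPM in KO and 16.1, 14.5 and 16.4 CPM in Het, against 5.71, 3.55 and 2.88 CPM in WT. No library of 1 genotype overlapped with another, and Het lay between KO and WT. The log2 fold change was 4.58 ± 0.17 (SE, adjusted p = 3.39e-05) for KO in batch 3, 4.34 ± 0.21 (adjusted p = 1.42e-07) for KO in batch 1 and 1.96 ± 0.21 (adjusted p = 0.0284) for Het. The Het call was lost, and the count of Het calls fell to 0, without Het replicate 1, 2 or 3, KO replicate 3, WT replicate 2 or WT replicate 3. Its domain of 11579 bp kept H3K27me3 over 94.9% in KO 530 and 98.6% in KO 534, against 99.9% in WT 532. H3K27ac covered 18.2% of it in KO 530 and 17.4% in KO 534, against 6.12% in WT 532 and 0% in WT 541.

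Cacna1g, whose start lies in a second domain of the gene (chr11:94470731-94475263), had 66.9 and 35.7 CPM in KO, against 4.79 and 2.91 CPM in WT, in batch 3. Its log2 fold change was 3.73 ± 0.36 (SE, adjusted p = 0.000549), and 4.26 in batch 1 (adjusted p = 1.61e-07). Every KO library was above every WT library in both batches. The domain had 45.3% and 46.9% H3K27me3 in KO 530 and KO 534, against 54.4% in WT 532. H3K27ac covered 21.0% and 27.1% of it in the KO lines, against 11.2% in WT 532 and 12.9% in WT 541.

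Pcsk6, a protease that matures growth factors, had 23.8 and 24.2 CPM in KO, against 2.55 and 4.33 CPM in WT, in batch 3 (log2 fold change 2.81 ± 0.27, adjusted p = 0.000556). Its domain was one of the less covered in KO, at 58.1% in KO 530 and 59.2% in KO 534, against 92.5% in WT 532. H3K27ac covered 15.8% and 19.2% of it in these KO lines, against 12.2% in WT 532 and 16.1% in WT 541. Pdlim2, an adaptor of the cytoskeleton, had 6.31 and 6.72 CPM in KO, against 1.24 and 0.608 CPM in WT (2.79 on the log2 scale, adjusted p = 0.00202). H3K27ac lay on 32.6% and 69.8% of the Pdlim2 domain in KO 530 and KO 534, against 0% in WT 532 and 6.18% in WT 541. In batch 1 Pdlim2 lost its call without KO replicate 1, WT replicate 2 or WT replicate 3, with adjusted p up to 0.117.

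The other large rises were in Cbln2, Ahnak, Ovol1, Chst8, Srcin1 and Ascl2. Cbln2 encodes a secreted organiser of synapses, and it had 2.32 and 2.18 CPM in KO, against 0 and 0.203 CPM in WT, in batch 3. Ahnak, a giant scaffold protein whose locus also holds Mir6367, had 9.36 and 2.87 CPM in KO, against 0.996 and 0.135 CPM in WT. In batch 1 it had 202, 572 and 375 CPM in KO, against 7.59, 13.9 and 7.07 CPM in WT. Srcin1, an adaptor that restrains Src kinase, had 7.50 and 4.60 CPM in KO, against 0.809 and 1.01 CPM in WT, and its log2 fold change was 2.72 in batch 3 and 5.07 in batch 1. Ovol1, a zinc finger repressor of epithelia, had 1.79 and 2.70 CPM in KO, against 0.249 and 0.338 CPM in WT (2.92 ± 0.52, adjusted p = 0.00501). KO and WT libraries of batch 3 did not overlap in any of these. The batch 3 calls of Chst8, a sulfotransferase, and of Ascl2, a bHLH factor of trophoblast and intestinal stem cells, rested on few fragments and were lost when 1 library was left out. Chst8 lost it without KO replicate 1 or WT replicate 1 (adjusted p up to 0.176) and Ascl2 without KO replicate 2, WT replicate 1 or WT replicate 2 (adjusted p up to 0.178). In batch 1 they had log2 fold changes of 6.32 and 4.40, and both kept the call when any 1 library was left out. H3K27me3 covered 99.1% of the Cbln2 domain in each KO line, against 81.96% in WT 532. The Ovol1 domain had 91.9% in KO 530 and 89.6% in KO 534, against 100% in WT 532. Neither domain had H3K27ac in any line. For Srcin1, H3K27ac cover in both WT lines lay between KO 530 and KO 534. For Chst8 it was 4.297% and 8.36% in these KO lines, against 0% in WT 532 and 3.67% in WT 541. For Ahnak and Ascl2, H3K27me3 cover in WT 532 lay between the KO lines.

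The largest fall was in Otx2, followed by Six3os1. Otx2 had 0.332 and 0.115 CPM in KO, against 11.3 and 7.16 CPM in WT, in batch 3. In batch 1 it had 0.474, 0.685 and 0.494 CPM in KO and 11.6, 5.49 and 9.20 CPM in Het, against 2.95, 4.73 and 6.13 CPM in WT. All KO libraries lay below all others, and Het overlapped with WT. The log2 fold change in KO was −5.37 ± 0.51 (SE, adjusted p = 0.000549) in batch 3 and −3.05 (adjusted p = 7.44e-05) in batch 1. Otx2 started in 2 neighbouring domains (chr14:48650519-48664007 and chr14:48664723-48671759). H3K27me3 covered 100% of both in KO 530 and KO 534, against 94.0% of the first and 99.4% of the second in WT 532. H3K27ac was at 0% in both KO lines, against 51.8% of the second domain in WT 532 and 37.5% in WT 541.

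Six3 and its divergent noncoding neighbour Six3os1 shared 1 domain of 30809 bp (chr17:85602295-85633103). Six3 had 2.52 and 3.22 CPM in KO, against 30.1 and 17.2 CPM in WT, in batch 3 (log2 fold change −3.04 ± 0.32, adjusted p = 0.000764). In batch 1 it had 0.316, 0.457 and 0.282 CPM in KO, against 2.20, 1.58 and 2.57 CPM in WT, a log2 fold change of −2.56 (adjusted p = 0.000542). Six3os1 had 1.79 and 2.24 CPM in KO, against 83.2 and 43.0 CPM in WT, in batch 3 (−4.96 ± 0.36, adjusted p = 0.000213). Without KO replicate 1 or KO replicate 2 the adjusted p of Six3os1 in batch 3 was up to 0.155. KO libraries were below WT libraries for both genes in both batches. The sources used here do not say that counting used strand, so reads of the 2 genes may not be separable where they overlap. The domain was under H3K27me3 to 100% in both KO lines, against 95.9% in WT 532, and under H3K27ac to 0% in both KO lines, against 43.5% in WT 532 and 25.3% in WT 541.

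En2, a homeodomain factor of the midbrain and hindbrain boundary, had 0.133 and 0.287 CPM in KO, against 4.85 and 6.15 CPM in WT, in batch 3 (−4.63 ± 0.49 on the log2 scale, adjusted p = 0.00076). Cnpy1, its neighbour and a regulator of FGF signalling in zebrafish, had 0.0664 and 0.172 CPM in KO, against 2.99 and 3.58 CPM in WT (−4.65 ± 0.57, adjusted p = 0.00111). In both genes the KO libraries lay below the WT libraries by a wide gap. In batch 1 their log2 fold changes were −2.92 and −2.38, and En2 lost its call without KO replicate 1 (adjusted p = 0.0565). H3K27me3 covered 99.6% or more of both domains in both KO lines, against 99.5% of the En2 domain and 97.4% of the Cnpy1 domain in WT 532.

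Trim71 (domain chr9:114556490-114565037) had 0.199 and 0.287 CPM in KO, against 3.30 and 2.095 CPM in WT, in batch 3. The log2 fold change was −3.42 (adjusted p = 0.0029), and −3.61 in batch 1. H3K27me3 covered 97.0% of its domain in KO 530 and 100% in KO 534, against 75.3% in WT 532, and H3K27ac 0% in both KO lines, against 32.1% in WT 532 and 29.5% in WT 541. Lin28b, an RNA-binding protein that blocks maturation of let-7 microRNAs, had no fragment in either KO library of batch 3, against 1.31 and 1.28 CPM in WT. Against a floor of 3 counts per library, Lin28b was at least 6.97-fold lower in KO. Its domain had 100% H3K27me3 in both KO lines, against 83.6% in WT 532, and no H3K27ac in any line.

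The other large falls were in Des, Coch, Ripk3 and Acan. Des, the intermediate filament protein of muscle, had 0 and 0.0574 CPM in KO, against 1.12 and 0.879 CPM in WT, in batch 3. Ripk3, a kinase of programmed necrosis, had 0.266 and 0.172 CPM in KO, against 3.98 and 2.43 CPM in WT, and its domain was covered to 73.8% and 85.9% in KO 530 and KO 534, against 41.8% in WT 532. Coch, an extracellular protein of the inner ear, had 0.0664 and 0.115 CPM in KO, against 1.62 and 1.62 CPM in WT. KO and WT libraries did not overlap in these 3 genes in batch 3, which was a condition of naming them. Coch lost its batch 1 call without KO replicate 1, KO replicate 3 or WT replicate 3 (adjusted p up to 0.0941), and Acan, a matrix proteoglycan, its batch 3 call without KO replicate 2 (adjusted p = 0.0793).

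**Figure D4:**
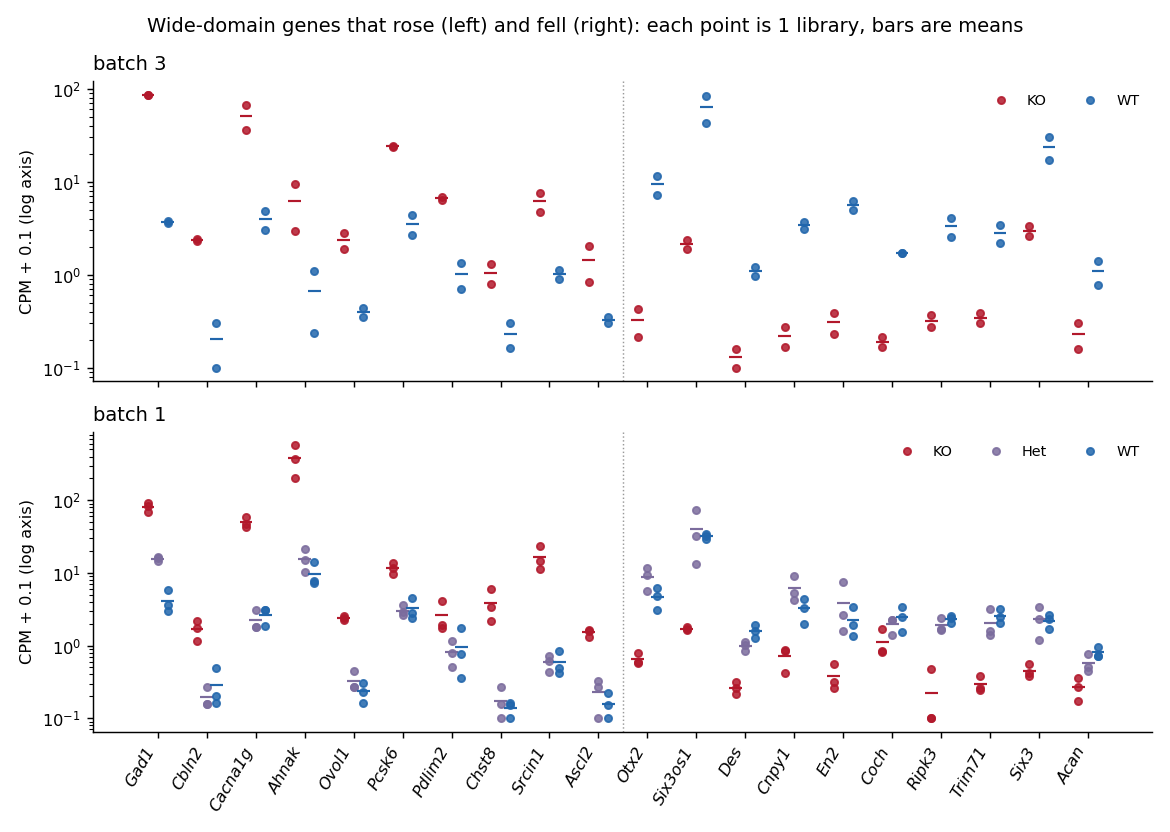
CPM plus 0.1 (y axis, log scale) of the 10 domain genes with the largest rise and the 10 with the largest fall that were called alike in both batches, in batch 3 (top, KO and WT) and batch 1 (bottom, KO, Het and WT). Points are libraries and bars are means. Gad1 stands at 86.2 and 84.8 CPM in KO, against 3.49 and 3.65 CPM in WT, and Otx2 at 0.332 and 0.115 CPM in KO, against 11.3 and 7.16 CPM in WT, in batch 3.

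Homeobox genes other than Hox were the family with most members above the filter. Of 16 tested in batch 3, 1 rose and 9 fell, with a median log2 fold change of −1.08, where 17.3% of all genes were called higher and 14.4% lower. Leaving out 1 library left 5 to 8 that fell. En2, Otx2, Pax6 and Six3 kept the call each time, while Barx2 lost it without KO replicate 1 or WT replicate 1 (adjusted p up to 0.0949) and Gbx2 without KO replicate 1 or WT replicate 2 (adjusted p up to 0.295). In batch 1, 4 rose and 8 fell of 19, with a median of −0.31, where 34.3% of all genes were called higher and 35.0% lower. Pax6, a master factor of cortical progenitors and eye, had 21.8 and 18.8 CPM in KO, against 42.1 and 40.9 CPM in WT, in batch 3 (−1.03, adjusted p = 0.0028). In batch 1 it fell by 0.31 on the log2 scale (adjusted p = 0.0062). The domain of Pax6 (chr2:105666267-105672785) had H3K27ac over 0% in both KO lines, against 31.8% in WT 532 and 31.9% in WT 541. Barhl2, a factor of diencephalon and retina, had 0.598 and 1.21 CPM in KO, against 2.55 and 3.11 CPM in WT, in batch 3, and lost its call without KO replicate 1 or WT replicate 2 (adjusted p up to 0.115). The Hox genes, all 39 of them, stayed below the filter in both batches, and 34 had no fragment in batch 3.

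Few bHLH, T-box and signalling genes in the domains passed the filter. Of 3 bHLH genes tested in batch 3, Ascl2 and Atoh8 rose and none fell, and of 4 in batch 1, 3 rose and none fell. Atoh8 lost its batch 3 call without KO replicate 1 or WT replicate 1 (adjusted p up to 0.0771), and the losses of Ascl2 are given above. Over all genes, 17.3% were called higher and 14.4% lower in batch 3, and 34.3% and 35.0% in batch 1. Neurog2, which commits progenitors to excitatory neurons, was below the filter in batch 3, at 2.12 and 0.287 CPM in KO, against 0.124 and 0.0676 CPM in WT. In batch 1 it had 7.69, 16.5 and 12.4 CPM in KO and 0.614, 0.629 and 1.14 CPM in Het, against 0.188, 0.526 and 0.262 CPM in WT, a log2 fold change of 5.22. All KO libraries of Neurog2 lay above all others in both batches. Its domain kept H3K27me3 over 100% in both KO lines and in WT 532. T-box genes had 0 higher and 1 lower of 4 tested in batch 3, and 3 higher and 0 lower of 3 in batch 1. The 1 that fell, Tbr1, a factor of deep-layer cortical neurons, lost the call without KO replicate 1, WT replicate 1 or WT replicate 2. Signalling genes had 1 higher and 0 lower of 5 in batch 3, and 5 higher and 0 lower of 10 in batch 1. Wnt3, a ligand of the Wnt pathway and the one that rose in batch 3, had 2.46 and 1.61 CPM in KO, against 0.622 and 0.473 CPM in WT. Wnt3 lost this call without KO replicate 1, WT replicate 1 or WT replicate 2 (adjusted p up to 0.117). No forkhead, GATA or Sox gene in a domain passed the filter in either batch.

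Genes called in batch 3 differed in the marks at their domains. For the 60 that fell, the median cover by H3K27me3 was 99.1% in KO 530 and 99.3% in KO 534, against 89.5% in WT 532. For the 46 that rose it was 81.5% and 83.8% in the KO lines, against 89.3% in WT 532. Cover was higher in both KO lines than in WT 532 for 37 of the 60 and lower in both for 8. Among the 46 it was higher in both for 8 and lower in both for 25. Over all 1057 domain genes these counts were 362 and 321.

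H3K27ac at gene starts also differed by class. Of the 60 genes that fell, 14 had a start under H3K27ac in KO 530 and 22 in KO 534, against 41 in WT 532 and 40 in WT 541, or 23.3% and 36.7% in KO, against 68.3% and 66.7% in WT. Both KO counts lay below both WT counts. Of the 46 that rose, 20 had one in KO 530 and 27 in KO 534, against 20 in WT 532 and 20 in WT 541. A start under H3K27ac in both WT lines and in no KO line was found for 14 of the 60, or 23.3%. Among them were Otx2, Six3os1, En2, Cnpy1, Trim71, Coch, Onecut2, a factor of retina and liver, and Nkx2-2, a factor of ventral progenitors. The batch 3 call of Onecut2 was lost without KO replicate 2, WT replicate 1 or WT replicate 2 (adjusted p up to 0.118), and that of Nkx2-2 without KO replicate 1 or WT replicate 2 (adjusted p up to 0.193). The same pattern was found for 1 of the 46 that rose, 5 of 186 tested and not called, and 11 of 765 below the filter. Outside the domains it was found for 53 of 1794 genes that fell, or 2.95%. There every start of a gene was read, while for domain genes only starts inside a domain were, so the 2 shares are not like measures. The reverse, H3K27ac in both KO lines and no WT line, was found for 7 domain genes, and Gad1 was the 1 of them that was called. At Gad1 this rests on the start itself, since a WT 532 peak began 91 bp after it. These counts are descriptions of 4 lines, and the RNA libraries of batch 3 are not tied to single lines.

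**Figure D5:**
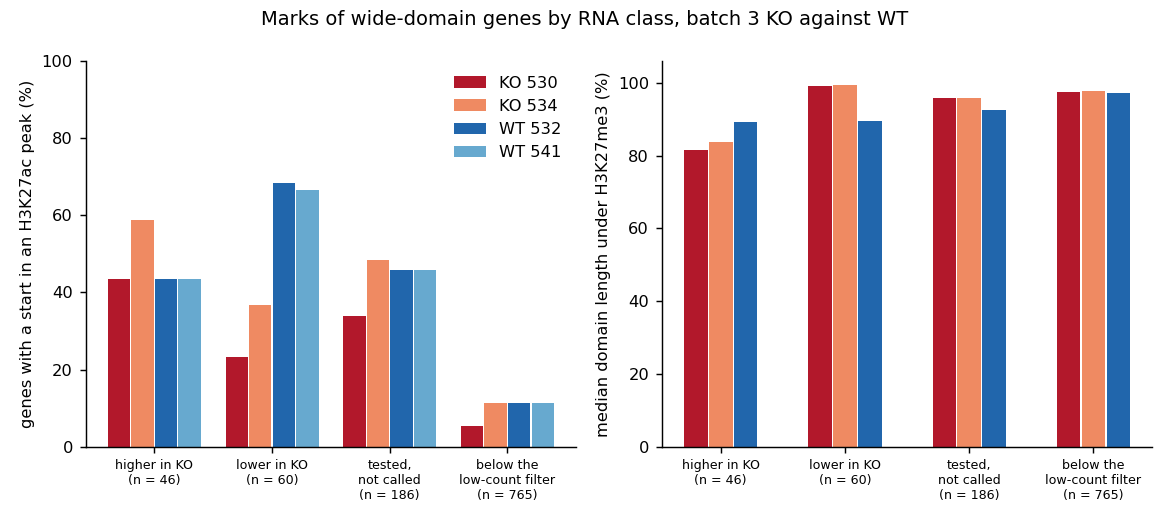
Left, share of domain genes with a start in an H3K27ac peak (y axis, percent). Right, median share of domain length under H3K27me3 (y axis, percent). Bars are KO 530, KO 534, WT 532 and, left, WT 541, for genes higher in KO, lower in KO, tested and not called, and below the low-count filter in batch 3. Genes lower in KO have 23.3% and 36.7% in the KO lines at left, against 68.3% and 66.7% in the WT lines.

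Promoters in the domains were rich in CG. Of 32851 RefSeq promoter windows, 1178 started inside a domain, and 1142 of these touched H3K27me3 in KO 530, 1142 in KO 534 and 1145 in WT 532. They held a median of 15 CG, against 14 in windows starting in narrower WT 541 peaks, 6 in those starting in no WT 541 peak and 7 over all windows. The letters GGGCGG, on either strand, were in 54.1% of the domain windows and in 35.7% of all windows. The letters TATAAA were in 10.1% of domain windows and 13.6% of all, CACGTG in 8.23% and 7.15%, and CCAAT in 33.2% and 37.4%. In the narrower WT 541 peaks the shares were 49.7% for GGGCGG, 9.10% for TATAAA, 7.36% for CACGTG and 29.6% for CCAAT. H3K27ac touched 134 of the 1178 windows in KO 530 and 222 in KO 534, against 252 in WT 532 and 243 in WT 541.

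Genes of the Polycomb machinery and of its known target were read on the same libraries. Of 12 genes of PRC2 and of H3K27 demethylases tested in batch 3, 0 rose and 6 fell, where 14.4% of all genes were called lower. The count that fell was 1 without WT replicate 1 and 2 without WT replicate 2. Aebp2, Mtf2, Rbbp4 and Rbbp7, further PRC2 subunits, lost the call in both of these, Eed without WT replicate 1, and Ezh2 in none. Ezh2, the PRC2 methyltransferase, had 115 and 129 CPM in KO, against 237 and 245 CPM in WT (−0.98 on the log2 scale, adjusted p = 0.0016). In batch 1, 4 rose and 8 fell of 13. Of the PRC1 genes and readers, 1 rose and 1 fell of 19 in batch 3, and 10 rose and 2 fell of 18 in batch 1. The shares over all genes were 17.3% higher and 14.4% lower in batch 3, and 34.3% higher and 35.0% lower in batch 1. Leaving out 1 library gave 0 to 9 PRC1 genes higher in batch 3 and 7 to 11 in batch 1. Cdkn2a fell in both batches, with 4.91 and 5.80 CPM in KO, against 17.9 and 17.3 CPM in WT, in batch 3 (−1.71 ± 0.22, adjusted p = 0.0012) and a log2 fold change of −2.52 in batch 1. Its domain of 13654 bp (chr4:89270533-89284186) was covered to 99.7% and 100% in KO 530 and KO 534, against 94.4% in WT 532. The RNA value is a gene total, and the other RefSeq start of Cdkn2a (chr4:89294619) lies in no wide domain. A second wide domain in Cdkn2a (chr4:89285626-89293162) was covered to 100% in KO 530, KO 534 and WT 532. H3K27ac covered 0% of the second in both KO lines, against 3.21% in WT 532 and 4.09% in WT 541. The total level of Mettl14 was −0.46 on the log2 scale in batch 3 (adjusted p = 0.0843) and −0.12 in batch 1 (adjusted p = 0.215). Gene totals do not report on the deleted part.

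Markers of progenitors were high in all libraries, and some moved with genotype. Summed FPKM of 11 neural progenitor markers was 2969 to 4188 in KO, against 5525 to 5547 in WT, in batch 3, and 4 of the 11 fell and 2 rose. For these and the batch 3 counts below, the shares over all genes were 17.3% higher and 14.4% lower. Choroid plexus markers (Ttr, Otx2 and Folr1) summed to 0.142 to 1.79 FPKM in KO, against 4.89 to 10.0 FPKM in WT, with Folr1 at 0 in every batch 3 library. Otx2 is itself a domain gene, so this sum is not separate from its fall. Its mean was 0.0973 FPKM in KO, against 3.98 FPKM in WT. Of 2 choroid plexus markers tested 0 rose and 1 fell, and that was Otx2. Astrocyte markers summed to 14.02 to 16.5 FPKM in KO, against 37.3 to 51.4 FPKM in WT, and 1 rose and 1 fell of 3 tested. Of 6 oligodendrocyte markers 3 rose and 1 fell, and of 6 neuron markers 0 rose and 1 fell. Microglia, endothelium and erythroid markers summed to at most 0.567 FPKM in any library of batch 3, and fibroblast and pericyte markers to at most 1.05 FPKM. In batch 1, progenitor markers summed to 2726 to 2951 FPKM in KO, against 6177 to 6242 FPKM in WT, and 4 rose and 6 fell. For this batch the shares over all genes were 34.3% higher and 35.0% lower. Astrocyte markers summed to 31.9 to 77.3 FPKM in KO, against 75.8 to 93.4 FPKM in WT, and of 4 tested 3 rose, Gfap and Aqp4 among them, and Aldh1l1 fell. Choroid plexus markers summed to 0.311 to 1.37 FPKM in KO, against 2.15 to 2.59 FPKM in WT. Otx2 was again the 1 that fell of 2 tested, with a mean of 0.219 FPKM in KO, against 1.86 FPKM in WT. Of 6 neuron markers 2 rose and 2 fell, and Dcx, which marks young neurons, had a log2 fold change of 2.99. Of 6 oligodendrocyte markers 2 rose and 1 fell. Fibroblast and pericyte markers summed to 0.988 to 1.38 FPKM in KO, against 0.219 to 0.332 FPKM in WT, and 2 of 3 tested rose, Pdgfrb with a log2 fold change of 4.98. Erythroid markers summed to 2.52 to 2.89 FPKM in KO, against 1.59 to 1.94 FPKM in WT. Microglia and endothelium markers each summed to at most 1.10 FPKM in any KO or WT library. The part of these shifts in the values of Gad1, Otx2 and the other domain genes was not tested.

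Transcripts with m6A were less common among the domain genes tested than among all genes tested. The 4 deposited lists of m6A regions pair 2 immunoprecipitates with 2 inputs of WT cells. A region in all 4 was found for 86 of 292 domain genes tested in batch 3, or 29.5%, against 5900 of all 12836 genes tested, or 46.0%. By class, it was found for 15 of the 46 genes that rose and 18 of the 60 that fell. Domain genes had lower levels than other genes, and the part of level in this share was not tested.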

How the data were processed

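The 12 ChIP samples (4 lines, each with H3K27ac, H3K27me3 and input) and 13 of 19 RNA libraries were used. The table given for the 6 libraries of batch 2 was identical to that of batch 1, so batch 2 was not analysed here. The submitters' processing notes name TopHat, TopHat2 2.1.0, Cufflinks, Cuffdiff, Bowtie2 2.3.1, MACS2 and mm10. The deposited RNA tables hold estimated counts of fragments and FPKM per locus and library, per the file headers. Estimated counts, 5.31% (batch 1) and 2.31% (batch 3) of them not whole, were rounded and summed per gene, with library totals of 14087371 to 20046524 fragments. Loci marked HIDATA by the authors were left out, 2 in batch 1 and 1 in batch 3. The deposited broad peak lists, 1 per line and mark against its own input, give a fold ratio and −log10 q per peak, and list no peak with −log10 q under 1. In the table of batch 3, libraries carry the genotype and not the line.

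Cover is the share of a domain's length under the peaks of a list, in Python 3.11.15 (pandas 2.3.3, numpy 2.4.6). Genes were tested over whole tables with edgeR 4.0.16 in R 4.3.3 (TMM, filterByExpr, robust quasi-likelihood), 2 KO against 2 WT in batch 3, and all 9 libraries of batch 1 in 1 fit. p-values measure the spread between lines. CPM were computed from the estimated counts. Scripts were tested on simulated data. The genes named as the largest rises and falls were the 10 and 10 with the largest batch 3 fold change among domain genes called alike in both batches without overlap of batch 3 libraries. The genes of the 12 widest and of the 10 least covered domains, the families and the marker lists were named too, and families were read from symbols, leaving out antisense symbols. Lin28b, Pax6, Neurog2, Wnt3, Barhl2, Onecut2, Nkx2-2 and the genes of the H3K27ac lists outside that rule were chosen after their values were seen. The domains, the lists and the tests were chosen with earlier results of these data known. Sequences are from RefSeq tables. Alternatives covered other widths, overlaps and peak thresholds, choice of domains in other lines, DESeq2 1.42.0, DESeq2 size factors, no filter, limma 3.58.1 on log2(FPKM + 1) and log2(FPKM + 0.1), other gene assignments, and each library left out.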

Additional observations from a re-analysis of the deposited data

Results flagged for a closer look

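For 7 domain genes the KO effect differed between the batches by the genotype by batch interaction (edgeR quasi-likelihood test, adjusted over 13589 genes). The share called over all 13589 genes is not given here, so the count of 7 is not set against it. The values below are the log2 fold change in batch 3 minus that in batch 1. The batches differ in lines, in date and in assembly, which cannot be told apart here.

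Barhl2, a homeodomain factor of the diencephalon, fell more in batch 1 (−6.04) than in batch 3 (−1.62), a difference of 4.38 (adjusted p = 0.0309). Its KO libraries of batch 1 had 0.158, 0 and 0 CPM. Pax6 fell more in batch 3 (−1.03) than in batch 1 (−0.31), a difference of −0.76 (adjusted p = 0.0125). Srcin1 rose less in batch 3 (2.72) than in batch 1 (5.07), a difference of −2.39 (adjusted p = 0.042).

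Cadm3, an adhesion molecule of neurons, fell in batch 3 (−1.66), and had 0.24 in batch 1 without a call, a difference of −1.95 (adjusted p = 0.0409). Lef1, a transcription factor of the Wnt pathway, fell in batch 3 (−3.32) and was below the filter in batch 1, a difference of −3.01 (adjusted p = 0.0494). Eomes, a T-box factor of intermediate progenitors, rose in batch 1 (2.78) and was below the filter in batch 3, a difference of −3.47 (adjusted p = 0.0213).

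Gpatch4 rose in batch 3 (0.75) and fell in batch 1 (−0.61), a difference of 1.31 (adjusted p = 0.0196). The start that placed it in a domain belongs to an assembled transcript with a new junction, where RefSeq lists Gm19439. The reference start of Gpatch4 lies outside the domain. Its batch 3 call was lost without WT replicate 1 (adjusted p = 0.126), and that of Cadm3 without WT replicate 2 (adjusted p = 0.075).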

How the results depend on the processing

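The number of domains fell to 1014 at a width of 6000 bp. The mean H3K27me3 cover of the other genotype was 85.3% at 3000 bp, 90.7% at 6000 bp, 88.6% with 50% of the domain covered in WT 532, 83.8% with peaks within 1000 bp joined, 86.2% at −log10 q of 2 or more, 87.4% chosen in WT 532, 84.9% chosen in KO 530 and 86.1% chosen in KO 534. The H3K27ac difference, KO minus WT, stayed below 0 in each of these. Counts of domain genes called fell with the number of genes assigned. With the whole gene inside, 3 rose and 8 fell of 27 tested in batch 3, 16 rose and 8 fell of 38 in batch 1, and 0 rose in Het. At 6000 bp, 24 rose and 39 fell of 158 in batch 3, and 66 rose and 53 fell of 185 in batch 1. The shares over all genes were 17.3% higher and 14.4% lower in batch 3, and 34.3% and 35.0% in batch 1. Leaving out 1 library gave 0 to 1 genes higher in Het. Among single genes, Kdm2b in batch 1 changed sign with limma, at −0.039 on log2(FPKM + 0.1) and −0.0376 on log2(FPKM + 1) against 0.18, and the cause was not tested. DESeq2 size factors changed no call of a named gene, DESeq2 ended 12 calls in batch 3 and 2 in batch 1, and limma on log2(FPKM + 1) ended 14 and 12. Leaving out 1 library ended a call in 61 of 342 fits of named genes in batch 3 and 38 of 773 in batch 1. These fits include genes of the fixed lists that were not called with all libraries and so had no call to lose. No paired analysis was possible because the labels give no replicate numbers that tie KO to WT libraries. In batch 3, 765 of 1057 domain genes lay below the low-count filter.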
